A study of Homo sapiens with 18 samples.

Results

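Transcripts of 31 p53 target genes were followed in the human cell line OCI-AML1, of acute myeloid leukaemia and labelled WT, treated in culture with AML874, with SEL120-34A or with DMSO, the solvent, for 24 h or 8 h. The 31 genes were chosen by symbol as well known targets and controllers of p53, and all 31 were matched to a gene ID, of 60609 gene IDs in the count files. All 31 passed the filter on low counts, in a table of 20920 genes tested. SEL120-34A is an inhibitor of the Mediator kinases CDK8 and CDK19, and AML874 is a code name. The 6 groups, each of 1 compound at 1 time, held 3 libraries each, 18 in all. The labels name a single cell line and give no dose, and they do not say which gene the WT label covers. They also do not say whether the 3 libraries of a group were separate cultures, so the p-values measure the spread between libraries, which may be technical. Whether transcripts fell in every cell or in some of the cells cannot be told apart in bulk RNA.

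The protein p53 is a transcription factor that damage to DNA and other stress stabilise. It binds a response element made of a pair of short half-sites and raises genes that stop the cell cycle, repair DNA, alter metabolism and start cell death. MDM2, the ubiquitin ligase that marks p53 for destruction, is itself a p53 target, and MDM4 is its partner, so the pathway restrains itself. In leukaemia the level of p53 activity is known to bear on the response to BCL2 inhibitors such as venetoclax, which the title of the series names. CDK8 has been described in human colon cancer cells as a positive regulator of p53 targets such as CDKN1A.

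The p53 response element was searched in promoter windows of RefSeq on GRCh38.p14, from 250 bases before to 50 after each transcript start, and 23 of the 31 genes had a window. Within 2 mismatches of the 20-base element, 4 of 23 genes (17.4%) had a match, against 224 of all 27305 genes (0.82%). Within 3 mismatches 8 of 23 genes (34.8%) had one, against 1745 genes (6.39%). The windows of these 23 genes had a median GC content of 65.3%, against 58.7% for all windows. The element reads the same on both strands and was searched with no spacer between the half-sites. A match describes letters and not binding. The 8 matches are shown because their genes later differ in direction. Capitals mark the 20 matched bases, with 1 mismatch in DDB2, 2 in AEN, FAS and MDM2, and 3 in the others.
MDM2 (chr12:68808878-68808987, plus strand): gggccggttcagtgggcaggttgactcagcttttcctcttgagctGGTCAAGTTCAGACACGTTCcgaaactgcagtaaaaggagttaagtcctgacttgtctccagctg
DDB2 (chr11:47214964-47214993, plus strand): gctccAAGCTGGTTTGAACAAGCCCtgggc
AEN (chr15:88621301-88621330, plus strand): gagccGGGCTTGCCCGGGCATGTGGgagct
FAS (chr10:88991304-88991333, plus strand): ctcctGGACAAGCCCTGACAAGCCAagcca
FDXR (chr17:74872991-74873020, minus strand): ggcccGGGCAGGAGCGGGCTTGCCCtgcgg
RPS27L (chr15:63157522-63157551, minus strand): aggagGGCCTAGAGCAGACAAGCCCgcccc
SESN1 (chr6:109008989-109009082, minus strand): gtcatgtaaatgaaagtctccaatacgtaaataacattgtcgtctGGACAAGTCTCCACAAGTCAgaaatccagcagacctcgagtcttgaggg
XPC (chr3:14178565-14178594, minus strand): aagtgGAATTTGCCCAGACAAGCAAcatgg

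The matches of MDM2 and SESN1 lay inside the gene and in no annotated exon. That of FAS overlapped exons of FAS and of ACTA2, its neighbour on the opposite strand, and that of XPC overlapped exons of XPC and of LSM3, also on the opposite strand. The other 4 lay in exons at the start of their own gene. Of the genes with a match within 2 mismatches, MDM2 fell with AML874 at 24 h and DDB2 rose with it, so a match did not go with 1 direction.

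Each library held 98975944 to 142496541 counts in genes, and a gene with 0 counts could lie at up to 0.0211 to 0.0303 CPM, the count scaled to library size. That limit covers counting error only. Markers of myeloid cells were all expressed. By edgeR, of 10 markers 3 rose and 6 fell with AML874 at 24 h, and 3 rose and 5 fell with SEL120-34A. At 8 h 1 rose and 5 fell with AML874, and 2 rose and 7 fell with SEL120-34A. Over all genes tested each direction took 18.6 to 23.7% in these 4 comparisons. Log2 changes of the markers ran from -2.87 to 3.12 (AML874) and from -1.53 to 3.41 (SEL120-34A) at 24 h. The summed level of the 10 markers was lower with both compounds. It was 1035 to 1051 CPM with AML874, 1110 to 1131 CPM with SEL120-34A and 1187 to 1229 CPM with DMSO at 24 h, and 1235 to 1239, 1270.4 to 1279 and 1346 to 1352 CPM in the same order at 8 h. Of 13 markers of other cell types, EPCAM, MS4A1 and HBA1 were at 0 and 2 passed the filter. Their summed level was 48.5 to 51.5 CPM with AML874, 53.1 to 57.8 CPM with SEL120-34A and 66.5 to 75.5 CPM with DMSO at 24 h, and 57.6 to 58.7, 60.2 to 62.1 and 67.4 to 75.4 CPM at 8 h. For both lists the treated groups did not overlap DMSO of the same time. The libraries of a group differed in genes of the hypoxia response. The mean of 22 targets of HIF, the hypoxia transcription factor, was 5.37 to 5.74 log2 CPM with AML874, 5.43 to 5.91 with SEL120-34A and 5.81 to 6.09 with DMSO at 24 h. At 8 h it was 4.83 to 4.91 with AML874, 4.75 to 5.42 with SEL120-34A and 4.99 to 5.69 with DMSO. Every AML874 library had a lower HIF mean than every DMSO library of its time, while SEL120-34A overlapped DMSO at both times. Hypoxia response and the effect of AML874 can therefore not be told apart by a covariate. The part of this variation in the results was examined with the HIF mean as a covariate, and without the 4 libraries that scored highest on the first component of variation inside groups, chosen after seeing the data. These were replicate 2 of SEL120-34A at each time, replicate 1 of AML874 at 24 h and replicate 3 of DMSO at 8 h. At 24 h mitochondrial genes took 7.74 to 8.16% of the counts with AML874, 6.34 to 6.82% with SEL120-34A and 6.11 to 6.18% with DMSO, and at 8 h 6.54 to 6.74%, 6.34 to 6.49% and 5.97 to 6.22% in the same order. The part of these markers and of mitochondrial genes in the results was not tested.

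Levels per transcript length are given in TPM, a measure scaled to transcript length and library. RPS27L, a ribosomal protein relative, had the highest mean over the 18 libraries at 133.5 TPM (107.4 to 155.5), followed by CCNG1 at 115.6 TPM (93.98 to 139.3) and CDKN1A at 83.3 TPM (59.8 to 123.7). CDKN1A and DDB2, at 79.0 TPM (61.9 to 97.6), had overlapping ranges. MDM2 stood seventh at 47.2 TPM, next to TNFRSF10B at 48.1 TPM, and their ranges overlapped too. The lowest were CMBL at 4.56 TPM, FAS at 3.41 TPM (2.31 to 4.76) and SPATA18 at 0.407 TPM (0.13 to 0.67).

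At 24 h with AML874, 12 of the 31 genes rose and 10 fell, and 9 did not pass. This is 71% of the genes, against 46.8% of all 20920 genes tested (23.1% rose, 23.7% fell). The median log2 change of the 31 genes was 0.00, against 0.00 for all genes. With SEL120-34A at 24 h, 14 rose, 4 fell and 13 did not pass, or 58.1%, against a background of 37.7% (19.1% rose, 18.6% fell). Their median was 0.06, against 0.01.

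At 8 h with AML874, 18 rose and 6 fell, or 77.4%, against 39.6% of all genes tested (19.7% rose, 19.9% fell), with a median of 0.13 against 0.00. With SEL120-34A at 8 h, 18 rose and 3 fell, or 67.7%, against 45.1% (22.4% rose, 22.6% fell), with a median of 0.12 against 0.00. Scaled by library totals alone, the split over all genes moved to 5258 higher and 3028 lower with AML874, and to 6217 and 3131 with SEL120-34A. The 31 genes were then at 19 higher and 5 lower with AML874, and at 20 and 2 with SEL120-34A. Both compounds were compared with the same DMSO libraries at each time.

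The share that passed depended on the filter on low counts. Among the 13527 genes with at least 1 CPM in 3 libraries, 62.5% passed at 24 h with AML874, and 52.6% did with SEL120-34A. At 8 h 55.0% passed with AML874, and 59.3% did with SEL120-34A. With that filter 23 and 18 of the p53 targets passed at 24 h, and 25 and 21 at 8 h. Log2 changes of the 31 genes ran from -0.63 to 1.20 with AML874 and from -0.58 to 0.97 with SEL120-34A at 24 h, and from -0.45 to 1.36 and from -0.28 to 1.23 in the same order at 8 h.

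Counted by libraries that do not overlap, 14 of the 31 genes had every library above and 12 every library below (53.5% of all genes in either direction, 26.4% above, 27.1% below) with AML874 at 24 h, and 16 of the 31 genes had every library above and 7 every library below (45.8% of all genes in either direction, 23.1% above, 22.7% below) with SEL120-34A at 24 h. At 8 h 18 of the 31 genes had every library above and 6 every library below (48.7% of all genes in either direction, 24.4% above, 24.3% below) with AML874, and 17 of the 31 genes had every library above and 3 every library below (51.9% of all genes in either direction, 25.8% above, 26.1% below) with SEL120-34A. With DMSO at 24 h against 8 h, 11 of the 31 genes had every library above and 8 every library below (50.1% of all genes in either direction, 23.8% above, 26.3% below). Between the compounds, 1 of the 31 genes had every library above and 11 every library below (32.5% of all genes in either direction, 15.2% above, 17.4% below) with AML874 against SEL120-34A at 24 h, and 6 of the 31 genes had every library above and 13 every library below (43.2% of all genes in either direction, 21.9% above, 21.3% below) at 8 h.

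**Figure D1:**
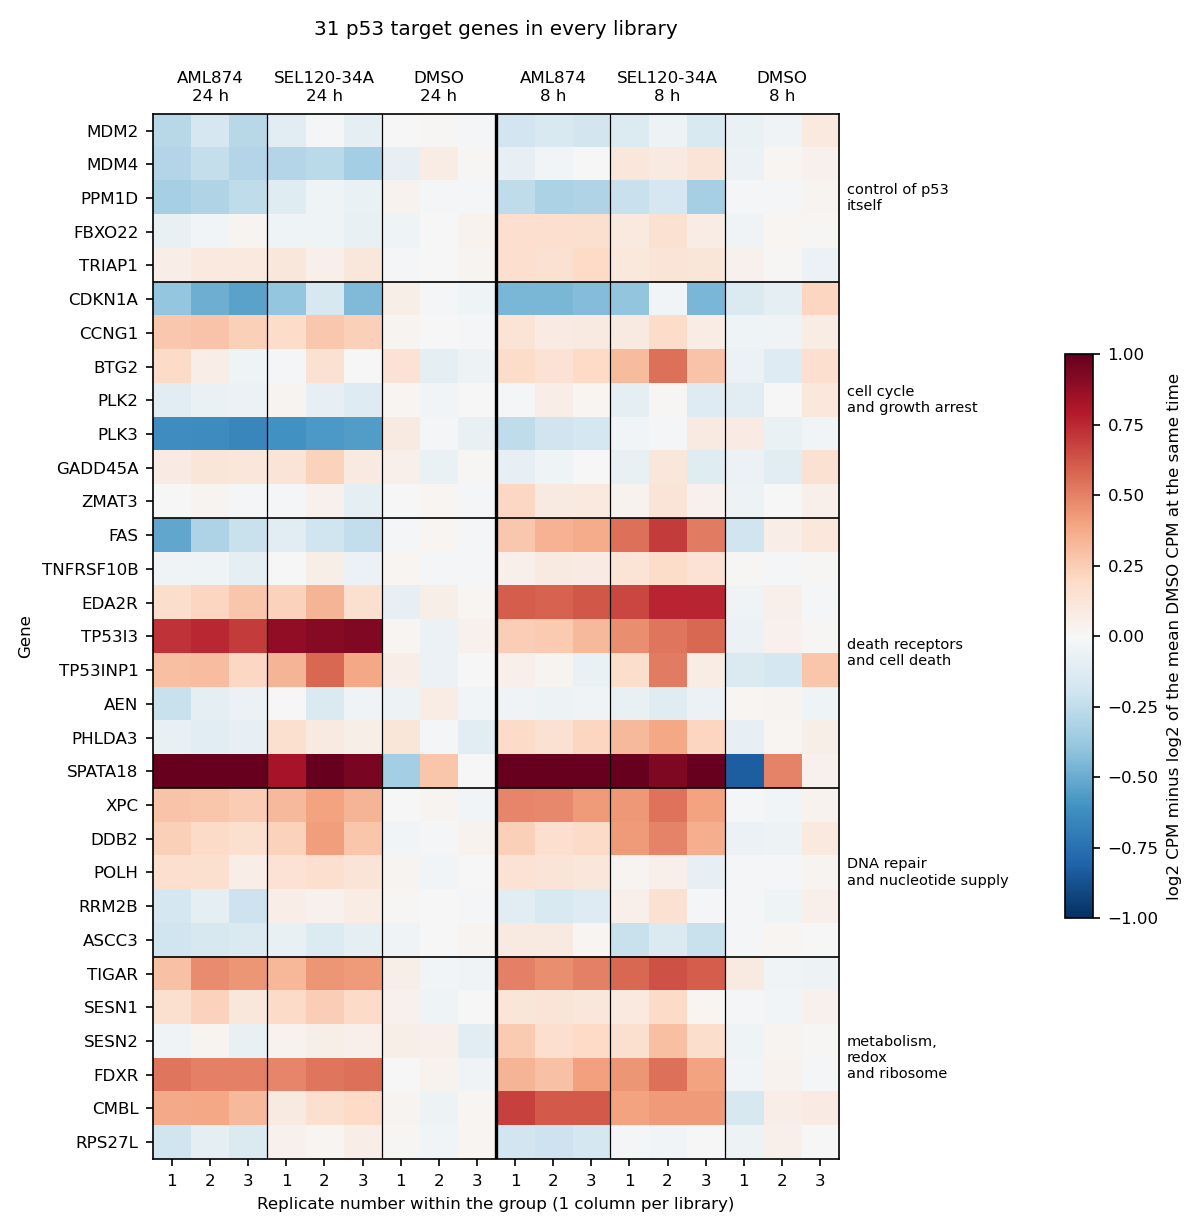
Log2 CPM of each of the 31 genes (rows, in groups by role) in each of the 18 libraries (columns), minus the log2 of the mean DMSO level at the same time; colours end at -1 and 1, so SPATA18 lies beyond the scale in some libraries. Rows for MDM2, PPM1D and CDKN1A are blue and rows for XPC, TIGAR and FDXR red in nearly all treated libraries, while FAS is red at 8 h and blue at 24 h.

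Of the genes listed under control of p53 itself, MDM2 and PPM1D fell with AML874 at both times and MDM4 fell with it at 24 h. Of these 5, 1 rose and 3 fell with AML874 at 24 h, 1 rose and 1 fell with SEL120-34A at 24 h, 2 rose and 2 fell with AML874 at 8 h, and 3 rose and 2 fell with SEL120-34A at 8 h. In the same order 23.1, 19.1, 19.7 and 22.4% of all genes tested rose, and 23.7, 18.6, 19.9 and 22.6% fell. These shares also stand beside the counts of the other roles below. MDM2 (ENSG00000135679.25, chromosome 12, 68808176 to 68850686 on GRCh38) had 120.4, 130.2 and 121 CPM with AML874, 136, 144 and 137 CPM with SEL120-34A, and 146, 148 and 145 CPM with DMSO at 24 h. At 8 h MDM2 had 131, 134 and 132 CPM with AML874, 135, 144 and 134 CPM with SEL120-34A, and 143, 145 and 159 CPM with DMSO. At each time every AML874 library lay below every DMSO library, and those of SEL120-34A did at 24 h but overlapped DMSO at 8 h, where replicate 2 had 144 CPM. With AML874 MDM2 had a log2 change of -0.24 ± 0.04 at 24 h (edgeR adjusted p = 3.91e-06) and -0.17 ± 0.04 at 8 h (edgeR adjusted p = 0.000329). With SEL120-34A it had -0.07 ± 0.04 at 24 h and did not pass (95% interval, not adjusted, -0.15 to 0.00), and -0.11 ± 0.04 at 8 h (edgeR adjusted p = 0.0129). It passed at 24 h in 5 of 30 alternative fits, among them those without replicate 2 of SEL120-34A at 24 h (-0.10, edgeR adjusted p = 0.0389), without replicate 3 of DMSO at 8 h (-0.08, edgeR adjusted p = 0.0304) and without the 4 libraries named above (-0.11, edgeR adjusted p = 0.000534). The 8 h call was lost when scaled by library totals alone, with edgeR adjusted p = 0.371, and without replicate 3 of DMSO at 8 h (edgeR adjusted p = 0.0669). In TPM MDM2 had a mean of 54.3 with SEL120-34A, 47.2 with AML874 and 49.3 with DMSO at 8 h. The 8 h fall with SEL120-34A was thus not seen in that measure, and the AML874 libraries lay inside the range of DMSO.

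PPM1D, a phosphatase that switches p53 signalling off, had 28.8, 29.5 and 30.3 CPM with AML874, 33.4, 35.2 and 34.6 CPM with SEL120-34A, and 37.1, 35.9 and 35.8 CPM with DMSO at 24 h. The 8 h values were 28.3, 27.04 and 27.3 CPM with AML874, 28.9, 29.9 and 26.7 CPM with SEL120-34A, and 33.2, 33.5 and 34.4 CPM with DMSO. All treated libraries lay below DMSO at both times, and at 24 h those of AML874 also lay below those of SEL120-34A. PPM1D had a log2 change of -0.30 ± 0.04 with AML874 at 24 h and -0.29 ± 0.04 at 8 h (edgeR adjusted p = 3.32e-08 and 9.8e-08). With SEL120-34A it fell by 0.24 ± 0.04 at 8 h (edgeR adjusted p = 2.33e-06), and at 24 h it was at -0.08 ± 0.04 and did not pass, though it did in 4 of 30 alternative fits.

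MDM4, the partner of MDM2 that blocks p53 (ENSG00000198625.13, chromosome 1, 204516379 to 204558120), had 51.96, 54.05 and 52.2 CPM with AML874, 51.996, 52.98 and 50.5 CPM with SEL120-34A, and 60.2, 66.99 and 64.2 CPM with DMSO at 24 h. At 8 h MDM4 had 52.6, 54.8 and 55.6 CPM with AML874, 60.3, 59.1 and 60.9 CPM with SEL120-34A, and 53.3, 56.4 and 57.3 CPM with DMSO. Every treated library was below DMSO at 24 h, and at 8 h the AML874 libraries overlapped DMSO while those of SEL120-34A were above it. Its log2 change at 24 h was -0.27 ± 0.03 with AML874 and -0.30 ± 0.03 with SEL120-34A (edgeR adjusted p = 3.01e-08 and 8.8e-09). At 8 h it was -0.04 ± 0.03 with AML874, which did not pass, and rose by 0.11 ± 0.03 with SEL120-34A (edgeR adjusted p = 0.00834). This rise was lost without replicate 1 or 3 of SEL120-34A or replicate 1 of DMSO (edgeR adjusted p = 0.0503, 0.0635 and 0.153).

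TRIAP1 was listed with these genes, although it is known as a small inhibitor of apoptosis downstream of p53, and it is 1 of the rises counted for them in each of the 4 comparisons. It had 45.2, 46.2 and 46.1 CPM with AML874, 46.6, 44.6 and 46.7 CPM with SEL120-34A, and 42.5, 42.999 and 43.8 CPM with DMSO at 24 h. Its 8 h levels were 61.4, 60.7 and 62.7 CPM with AML874, 58.9, 59.8 and 59.4 CPM with SEL120-34A, and 56.4, 54.99 and 52.6 CPM with DMSO. The treated libraries were above DMSO at both times. TRIAP1 rose by 0.09 ± 0.03 (AML874) and 0.09 ± 0.03 (SEL120-34A) at 24 h on the log2 scale, and by 0.17 ± 0.03 and 0.12 ± 0.03 in the same order at 8 h. The 24 h calls were lost without replicate 1 or 2 of DMSO (edgeR adjusted p = 0.0661 and 0.0557 with AML874, 0.0601 and 0.0677 with SEL120-34A), and that of SEL120-34A also without its replicate 1 or 3 (edgeR adjusted p = 0.0591 and 0.0689). That of AML874 was also lost with the HIF mean as a covariate (edgeR adjusted p = 0.0814). FBXO22, a subunit of a ubiquitin ligase, rose by 0.17 ± 0.03 (AML874) and 0.11 ± 0.03 (SEL120-34A) at 8 h. The SEL120-34A call was lost without replicate 2 of SEL120-34A or replicate 1 of DMSO (edgeR adjusted p = 0.0898 and 0.0764). At 24 h FBXO22 was at -0.03 and -0.05, and neither passed.

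Genes of cell cycle and growth arrest moved in both directions. Of 7, with AML874 at 24 h 1 rose and 2 fell, and with SEL120-34A 2 rose and 2 fell. At 8 h 2 rose and 2 fell with AML874, and 2 rose and 0 fell with SEL120-34A (1 by edgeR's unadjusted p under 0.05, 1 by DESeq2 and 0 by limma-voom). CDKN1A, which encodes the cyclin kinase inhibitor p21 and is the best known arrest gene of p53 (ENSG00000124762.13, chromosome 6, 36676460 to 36687339), had 102, 94.7 and 91.5 CPM with AML874, 102, 119 and 97.8 CPM with SEL120-34A, and 138, 131 and 129 CPM with DMSO at 24 h. At 8 h CDKN1A had 118, 118 and 119.8 CPM with AML874, 123, 159 and 118 CPM with SEL120-34A, and 146, 152 and 188 CPM with DMSO. The AML874 libraries lay below all DMSO libraries at both times, and so did those of SEL120-34A at 24 h, while replicate 2 of SEL120-34A at 8 h, at 159 CPM, overlapped DMSO. CDKN1A had a log2 change of -0.47 ± 0.12 with AML874 at 24 h and -0.45 ± 0.12 at 8 h (edgeR adjusted p = 0.00532 and 0.00793). With SEL120-34A it had -0.32 ± 0.12 at 24 h (edgeR adjusted p = 0.0466) and -0.28 ± 0.12 at 8 h, which did not pass (edgeR adjusted p = 0.0705, 95% interval, not adjusted, -0.53 to -0.03). The 8 h value passed without replicate 2 of SEL120-34A at 8 h (-0.44, edgeR adjusted p = 0.00451), without replicate 1 of DMSO at 8 h (-0.36, edgeR adjusted p = 0.0427), without the 4 libraries (-0.32, edgeR adjusted p = 3.61e-11) and by DESeq2 (adjusted p = 0.045).

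The SEL120-34A call of CDKN1A at 24 h was lost in 14 of 30 alternative fits, among them those without any 1 of the DMSO or AML874 libraries at that time. Its edgeR adjusted p was 0.12, 0.082 and 0.0739 without replicates 1, 2 and 3 of DMSO, and 0.127 and 0.155 without replicates 1 and 3 of SEL120-34A. With the replicate number as a block its edgeR adjusted p was 0.0604. With the HIF mean as a covariate CDKN1A had -0.28 ± 0.05 and -0.18 ± 0.05 at 24 h, and -0.21 ± 0.05 and -0.15 ± 0.05 at 8 h, with AML874 before SEL120-34A. All 4 passed in that fit, each nearer to 0 than without the covariate.

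PLK3, a polo-like kinase of the stress response, had 4.92, 4.91 and 4.81 CPM with AML874, 4.96, 5.10 and 5.14 CPM with SEL120-34A, and 8.06, 7.47 and 7.18 CPM with DMSO at 24 h. After 8 h the values were 8.41, 8.74 and 8.84 CPM with AML874, 9.81, 9.85 and 10.7 CPM with SEL120-34A, and 10.6, 9.57 and 9.82 CPM with DMSO. Every treated library was below DMSO at 24 h, and at 8 h those of AML874 were. PLK3 had a log2 change of -0.63 ± 0.06 (AML874) and -0.58 ± 0.06 (SEL120-34A) at 24 h (edgeR adjusted p = 1.33e-10 and 1.73e-09), the largest falls of any of the 31 genes in those 2 comparisons. At 8 h it was -0.21 ± 0.06 with AML874 (edgeR adjusted p = 0.00445) and 0.02 ± 0.06 with SEL120-34A, which did not pass.

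CCNG1, which encodes cyclin G1, had 195, 198 and 191 CPM with AML874, 184, 196 and 191 CPM with SEL120-34A, and 165, 162 and 159.8 CPM with DMSO at 24 h. The 8 h values were 156, 150.1 and 150.5 CPM with AML874, 151, 161 and 149 CPM with SEL120-34A, and 138, 138 and 149 CPM with DMSO. At 24 h all treated libraries were above DMSO, and the gap was wider than at 8 h. CCNG1 rose by 0.26 ± 0.03 (AML874) and 0.23 ± 0.03 (SEL120-34A) at 24 h (edgeR adjusted p = 6.18e-09 and 1.49e-07), and by 0.10 ± 0.03 and 0.12 ± 0.03 in the same order at 8 h. The 8 h calls were lost without single libraries: replicate 1 of AML874 or replicate 1 or 2 of DMSO for AML874 (edgeR adjusted p = 0.118, 0.118 and 0.0924), and replicate 2 of SEL120-34A for that compound (edgeR adjusted p = 0.0703).

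BTG2, an antiproliferative gene, had 39.9, 36.7 and 34.1 CPM with AML874, 34.8, 39.02 and 34.96 CPM with SEL120-34A, and 38.6, 32.7 and 33.8 CPM with DMSO at 24 h. Its 8 h levels were 29.7, 28.8 and 29.996 CPM with AML874, 32.5, 38.2 and 31.8 CPM with SEL120-34A, and 25.1, 23.8 and 29.4 CPM with DMSO. At 24 h the groups overlapped, and at 8 h those of SEL120-34A were above DMSO, with replicate 2 the highest. It rose by 0.39 ± 0.10 with SEL120-34A at 8 h (edgeR adjusted p = 0.00534). The other 3 comparisons gave 0.08 ± 0.09 (AML874) and 0.05 ± 0.10 (SEL120-34A) at 24 h and 0.18 ± 0.10 with AML874 at 8 h, and did not pass. With the HIF mean as a covariate BTG2 passed in all 4, at 0.24 ± 0.04 and 0.18 ± 0.04 at 24 h and 0.39 ± 0.04 and 0.50 ± 0.04 at 8 h. ZMAT3, an RNA-binding protein that restrains growth, rose by 0.13 ± 0.04 with AML874 at 8 h, a call lost without replicate 1 of AML874 or of DMSO (edgeR adjusted p = 0.165 and 0.0949). GADD45A, a stress sensor, rose by 0.15 ± 0.06 with SEL120-34A at 24 h, a call lost in 18 of 30 alternative fits, at an edgeR adjusted p of 0.22 without replicate 2 of DMSO. PLK2, another polo-like kinase, did not pass in any of the 4 comparisons with DMSO, with log2 changes from -0.08 to 0.02. Without replicate 1 of DMSO at 8 h PLK2 passed with SEL120-34A at 8 h (-0.13, edgeR adjusted p = 0.0379).

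Most death receptor and cell death genes rose at 8 h, and at 24 h at most 4 of the 8 did. Over all genes tested 19.7 and 22.4% rose at 8 h and 23.1 and 19.1% at 24 h, with AML874 before SEL120-34A. Of 8, with AML874 at 24 h 3 rose and 2 fell, and with SEL120-34A 4 rose and 0 fell. At 8 h 6 rose and 0 fell with each compound. Where edgeR gave 0 falls, its unadjusted p under 0.05 gave 1 with SEL120-34A at 24 h, 0 with AML874 at 8 h, 1 with SEL120-34A at 8 h, DESeq2 gave 1, 0, 0 in the same order, and limma-voom gave 0 in each. TP53I3, a quinone oxidoreductase known for a part in oxidative stress (ENSG00000115129.14, chromosome 2, 24077433 to 24085861), had 18.5, 18.9 and 18.2 CPM with AML874, 20.7, 21.1 and 21.3 CPM with SEL120-34A, and 11.4, 10.8 and 11.5 CPM with DMSO at 24 h. After 8 h the values were 13.7, 13.9 and 14.5 CPM with AML874, 16.01, 16.8 and 17.3 CPM with SEL120-34A, and 11.1, 11.96 and 11.7 CPM with DMSO. The 3 groups of each time did not overlap, with SEL120-34A highest and DMSO lowest. TP53I3 rose by 0.72 ± 0.04 (AML874) and 0.91 ± 0.04 (SEL120-34A) at 24 h (edgeR adjusted p = 1.49e-15 and 5.91e-18). At 8 h it rose by 0.27 ± 0.05 and 0.53 ± 0.05 in the same order.

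EDA2R, a receptor of the tumour necrosis factor family that binds ectodysplasin (ENSG00000131080.15, chromosome X, 66595637 to 66639298), had 15.2, 15.6 and 16.3 CPM with AML874, 15.8, 16.99 and 15.02 CPM with SEL120-34A, and 12.7, 13.98 and 13.7 CPM with DMSO at 24 h. At 8 h EDA2R had 17.9, 17.7 and 18.2 CPM with AML874, 18.7, 20.002 and 20.02 CPM with SEL120-34A, and 11.5, 12.2 and 11.7 CPM with DMSO. Treated libraries were above DMSO at both times, by more at 8 h. It rose by 0.22 ± 0.05 and 0.24 ± 0.05 with AML874 and SEL120-34A at 24 h, and by 0.60 ± 0.05 and 0.73 ± 0.05 at 8 h (edgeR adjusted p = 4.58e-12 and 2.82e-14 at 8 h).

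FAS, the receptor through which FAS ligand starts apoptosis (ENSG00000026103.22, chromosome 10, 88990582 to 89015785), had 3.91, 4.51 and 4.81 CPM with AML874, 5.18, 4.86 and 4.71 CPM with SEL120-34A, and 5.57, 5.68 and 5.55 CPM with DMSO at 24 h. The 8 h values were 5.63, 5.95 and 6.07 CPM with AML874, 6.84, 7.59 and 6.70 CPM with SEL120-34A, and 4.08, 4.91 and 5.05 CPM with DMSO. In CPM the treated libraries were above DMSO at 8 h and below it at 24 h. In TPM the same held, except that SEL120-34A at 24 h (2.73 to 3.17) overlapped DMSO (3.10 to 3.95). FAS had a log2 change of -0.35 ± 0.08 with AML874 at 24 h (edgeR adjusted p = 0.000452), and -0.19 ± 0.08 with SEL120-34A, which did not pass (edgeR adjusted p = 0.0585). It rose by 0.32 ± 0.08 (AML874) and 0.59 ± 0.08 (SEL120-34A) at 8 h (edgeR adjusted p = 0.00127 and 1.56e-07). With SEL120-34A at 24 h it passed in 12 of 30 alternative fits.

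SPATA18, known for a part in mitochondrial quality control, had the lowest level of the 31 genes. It had 1.22, 1.40 and 1.40 CPM with AML874, 1.03, 1.29 and 1.13 CPM with SEL120-34A, and 0.461, 0.706 and 0.584 CPM with DMSO at 24 h. Its 8 h levels were 1.55, 1.34 and 1.35 CPM with AML874, 1.56, 1.02 and 1.27 CPM with SEL120-34A, and 0.302, 0.754 and 0.551 CPM with DMSO. The DMSO libraries at 8 h differed by more than 2-fold among themselves, and each treated library lay above every DMSO library of its time. SPATA18 rose by 1.20 ± 0.20 and 0.97 ± 0.20 with AML874 and SEL120-34A at 24 h, and by 1.36 ± 0.20 and 1.23 ± 0.21 at 8 h (edgeR adjusted p = 9.91e-06, 0.000284, 3.19e-06 and 1.42e-05), the largest rises among the 31 genes in each of the 4.

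PHLDA3, a repressor of AKT signalling, rose by 0.19 ± 0.05 (AML874) and 0.31 ± 0.05 (SEL120-34A) at 8 h, and did not pass at 24 h (-0.09 and 0.10). The AML874 call was lost without replicate 1 of DMSO (edgeR adjusted p = 0.0608). At 24 h PHLDA3 passed in opposite directions when 1 DMSO library was left out, at -0.14 with AML874 without replicate 3 and at 0.17 with SEL120-34A without replicate 1 (edgeR adjusted p = 0.0314 and 0.0116). TNFRSF10B, a receptor of the death ligand TRAIL, rose by 0.07 ± 0.03 (AML874) and 0.15 ± 0.03 (SEL120-34A) at 8 h, and the AML874 call was lost in 13 of 30 alternative fits, among them those without any 1 of the AML874 or DMSO libraries of that time (edgeR adjusted p up to 0.224). TP53INP1, which promotes autophagy and cell death, rose by 0.43 ± 0.12 with SEL120-34A at 24 h, a call lost without replicate 2 of SEL120-34A or of DMSO (edgeR adjusted p = 0.0521 and 0.0508). With AML874 it had 0.27 at 24 h and 0.01 at 8 h, and with SEL120-34A 0.27 at 8 h, and these did not pass (edgeR adjusted p = 0.0843, 0.971 and 0.108). Without replicate 3 of DMSO at 8 h the SEL120-34A value at 8 h was 0.42 and passed (edgeR adjusted p = 0.0129). AEN, a nuclease that takes part in apoptosis, had -0.13 ± 0.04 with AML874 at 24 h and fell, a call lost without replicate 1 of AML874 or replicate 2 of DMSO (edgeR adjusted p = 0.0947 and 0.0624). With SEL120-34A at 8 h AEN was at -0.08 and did not pass (edgeR adjusted p = 0.0733), though it did in 13 of 30 alternative fits.

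**Figure D2:**
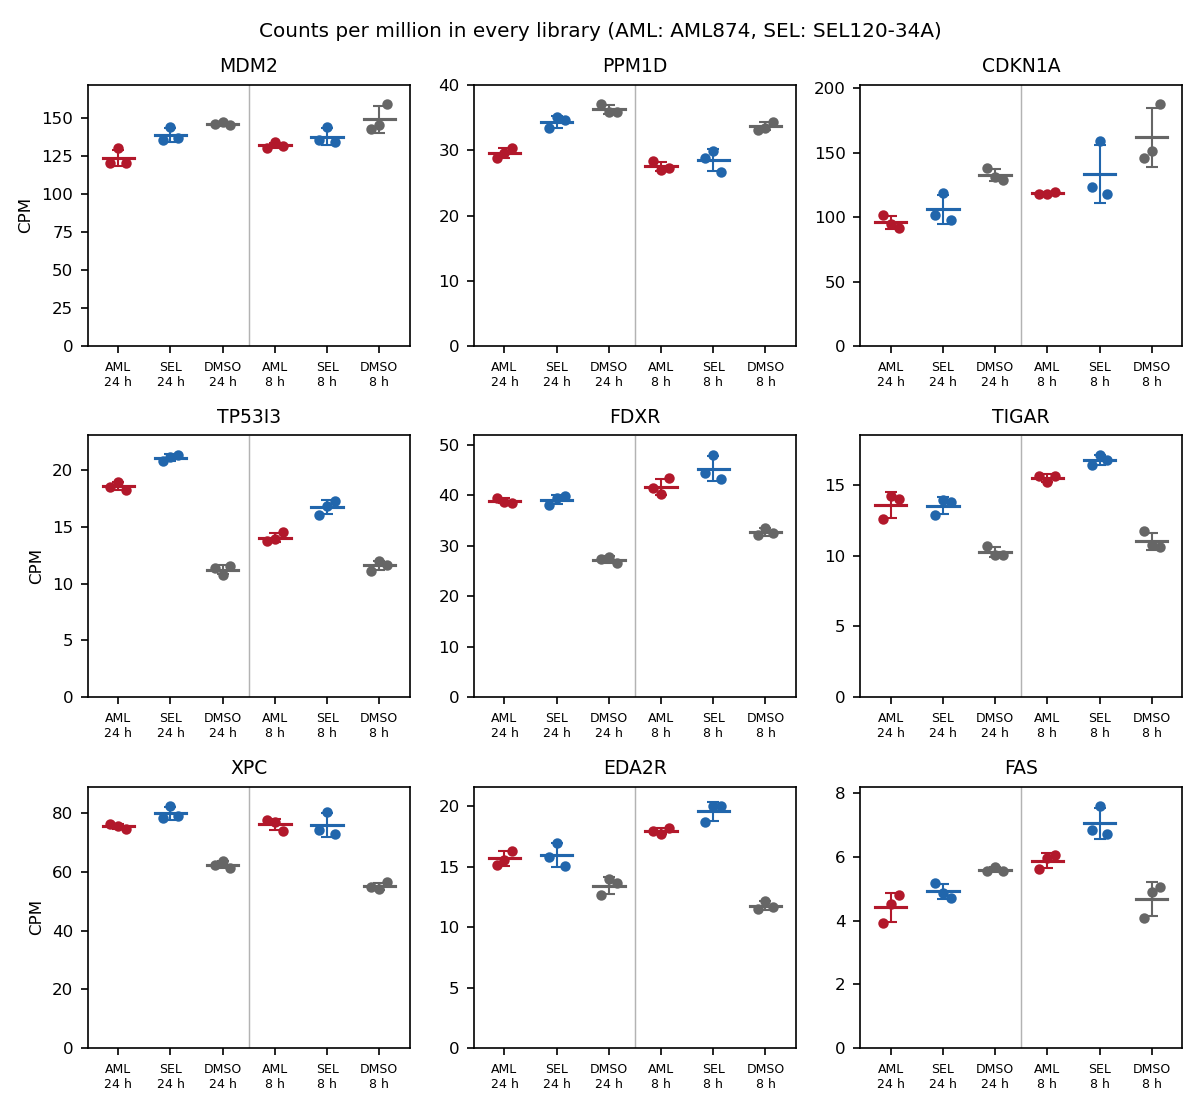
CPM of 9 of the genes in every library (points), with the mean (bar) and SD (whisker) of the 3 libraries of each group; AML874, SEL120-34A and DMSO run from left to right within 24 h and then within 8 h. TP53I3, TIGAR, XPC and FDXR lie higher in all treated libraries than in DMSO, PPM1D and CDKN1A lie lower with AML874, and FAS lies above DMSO at 8 h and below it at 24 h.

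Of 5 genes of DNA repair and nucleotide supply, 3 rose and 2 fell with AML874 at 24 h, and 3 rose and 1 fell with SEL120-34A at 24 h. At 8 h 3 rose and 1 fell with AML874, and 2 rose and 1 fell with SEL120-34A. XPC, which recognises bulky DNA lesions in nucleotide excision repair (ENSG00000154767.14, chromosome 3, 14145147 to 14178783), had 76.2, 75.5 and 74.5 CPM with AML874, 78.3, 82.4 and 78.96 CPM with SEL120-34A, and 62.5, 63.8 and 61.2 CPM with DMSO at 24 h. At 8 h XPC had 77.5, 76.9 and 73.9 CPM with AML874, 74.3, 80.4 and 72.99 CPM with SEL120-34A, and 54.8, 54.1 and 56.4 CPM with DMSO. Each treated library was above each DMSO library of its time. XPC rose by 0.27 ± 0.03 (AML874) and 0.35 ± 0.03 (SEL120-34A) at 24 h (edgeR adjusted p = 9.13e-09 and 4.5e-11), and by 0.47 ± 0.03 and 0.46 ± 0.03 at 8 h.

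DDB2, the partner of XPC that finds ultraviolet damage and that carries the closest element match (ENSG00000134574.11, chromosome 11, 47214465 to 47239240), had 84.4, 81.8 and 80.4 CPM with AML874, 84.3, 95.7 and 87.01 CPM with SEL120-34A, and 70.5, 71.3 and 73.4 CPM with DMSO at 24 h. At 8 h DDB2 had 76.9, 72.999 and 74.2 CPM with AML874, 87.2, 91.9 and 83.8 CPM with SEL120-34A, and 62.6, 62.9 and 69.6 CPM with DMSO. Treated libraries again lay above DMSO at both times. DDB2 rose by 0.20 ± 0.04 (AML874) and 0.31 ± 0.04 (SEL120-34A) at 24 h, and by 0.20 ± 0.04 and 0.43 ± 0.04 at 8 h (edgeR adjusted p = 0.000849, 7.18e-06, 0.00101 and 5.21e-08).

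RRM2B, the p53-inducible small subunit of ribonucleotide reductase, had 47.3, 49.8 and 46.3 CPM with AML874, 55.9, 54.96 and 56.3 CPM with SEL120-34A, and 53.97, 53.5 and 52.9 CPM with DMSO at 24 h. After 8 h the values were 48.4, 46.7 and 47.4 CPM with AML874, 53.7, 57.8 and 51.5 CPM with SEL120-34A, and 51.7, 50.3 and 54.004 CPM with DMSO. In CPM the AML874 libraries were the lowest at both times. In TPM replicate 2 of AML874 at 24 h, at 17.8, lay above all DMSO libraries (17.2 to 17.4). At 8 h the AML874 libraries lay inside the range of DMSO in that measure. RRM2B had a log2 change of -0.16 ± 0.04 with AML874 at 24 h and -0.13 ± 0.04 at 8 h (edgeR adjusted p = 0.000254 and 0.00351), while SEL120-34A gave 0.06 ± 0.04 and 0.06 ± 0.04 and did not pass. The 8 h call with AML874 was lost when scaled by library totals alone and with the HIF mean as a covariate (edgeR adjusted p = 0.0659 and 0.11).

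ASCC3, a helicase of alkylation repair, had 151, 155 and 157 CPM with AML874, 165, 157 and 162 CPM with SEL120-34A, and 169, 174 and 177 CPM with DMSO at 24 h. The 8 h values were 186, 186 and 177 CPM with AML874, 149.6, 158 and 149 CPM with SEL120-34A, and 172, 177 and 174 CPM with DMSO. SEL120-34A libraries were the lowest at 8 h and AML874 libraries reached above DMSO, while at 24 h both were below DMSO. ASCC3 had a log2 change of -0.17 ± 0.03 and -0.10 ± 0.03 with AML874 and SEL120-34A at 24 h, and -0.20 ± 0.03 with SEL120-34A at 8 h (edgeR adjusted p = 3.01e-06, 0.00308 and 2.74e-07). With AML874 at 8 h it was at 0.07 ± 0.03 and did not pass, though it did in 10 of 30 alternative fits. POLH, a polymerase that copies past damage, rose by 0.13 ± 0.04 and 0.15 ± 0.04 with AML874 and SEL120-34A at 24 h and by 0.13 ± 0.04 with AML874 at 8 h.

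Most genes of metabolism and redox balance rose with both compounds. Over all genes tested 23.1 and 19.1% rose at 24 h and 19.7 and 22.4% at 8 h, with AML874 before SEL120-34A. Of 6, 4 rose and 1 fell with AML874 and 4 rose and 0 fell with SEL120-34A at 24 h, and at 8 h 5 rose and 1 fell with AML874 and 5 rose and 0 fell with SEL120-34A. Where edgeR gave 0 falls, its unadjusted p under 0.05, DESeq2 and limma-voom gave 0 as well. FDXR, ferredoxin reductase of mitochondria (ENSG00000161513.12, chromosome 17, 74862497 to 74873031), had 39.5, 38.7 and 38.5 CPM with AML874, 38.1, 39.4 and 39.8 CPM with SEL120-34A, and 27.3, 27.8 and 26.5 CPM with DMSO at 24 h. At 8 h FDXR had 41.4, 40.2 and 43.4 CPM with AML874, 44.4, 47.98 and 43.2 CPM with SEL120-34A, and 32.2, 33.6 and 32.4 CPM with DMSO. No treated library overlapped DMSO. FDXR rose by 0.52 ± 0.04 (AML874) and 0.52 ± 0.04 (SEL120-34A) at 24 h (edgeR adjusted p = 7.51e-14 and 1.02e-13), and by 0.35 ± 0.04 and 0.46 ± 0.04 at 8 h.

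TIGAR, a phosphatase that lowers glycolytic flux (ENSG00000078237.7, chromosome 12, 4307763 to 4354593), had 12.6, 14.2 and 13.97 CPM with AML874, 12.9, 13.96 and 13.8 CPM with SEL120-34A, and 10.7, 10.1 and 10.03 CPM with DMSO at 24 h. At 8 h TIGAR had 15.6, 15.2 and 15.6 CPM with AML874, 16.4, 17.1 and 16.7 CPM with SEL120-34A, and 11.7, 10.7 and 10.6 CPM with DMSO. In CPM the treated libraries lay above DMSO at both times, with SEL120-34A above AML874 at 8 h. In TPM the compounds overlapped at 8 h, with means of 13.7 (AML874) and 11.8 (SEL120-34A), and at 24 h both overlapped DMSO. Their means at 24 h were 8.46 and 8.34 TPM, against 7.67 TPM with DMSO. By counts TIGAR rose by 0.40 ± 0.05 and 0.40 ± 0.05 with AML874 and SEL120-34A at 24 h, and by 0.49 ± 0.05 and 0.61 ± 0.05 at 8 h (edgeR adjusted p = 1.12e-09 and 6.97e-12 at 8 h).

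CMBL, a hydrolase, had 8.33, 8.37 and 8.04 CPM with AML874, 6.84, 7.16 and 7.35 CPM with SEL120-34A, and 6.53, 6.19 and 6.52 CPM with DMSO at 24 h. Its 8 h levels were 10.5, 9.99 and 9.97 CPM with AML874, 8.64, 8.75 and 8.76 CPM with SEL120-34A, and 5.83, 6.83 and 6.90 CPM with DMSO. AML874 libraries were the highest at both times. CMBL rose by 0.36 ± 0.06 with AML874 at 24 h, by 0.63 ± 0.06 at 8 h and by 0.41 ± 0.06 with SEL120-34A at 8 h (edgeR adjusted p = 5.05e-06, 1.12e-10 and 7.33e-07). With SEL120-34A at 24 h it rose by 0.15 ± 0.06 (edgeR adjusted p = 0.0491), a call lost in 25 of 30 alternative fits and at an edgeR adjusted p of 0.209 without replicate 2 of DMSO.

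RPS27L had 49.3, 52.9 and 51.1 CPM with AML874, 58.1, 57.1 and 58.9 CPM with SEL120-34A, and 56.8, 55.2 and 57.1 CPM with DMSO at 24 h. After 8 h the values were 58.02, 57.5 and 58.6 CPM with AML874, 65.5, 65.2 and 65.99 CPM with SEL120-34A, and 63.9, 68.7 and 66.3 CPM with DMSO. The AML874 libraries were below both other groups at each time. RPS27L had a log2 change of -0.14 ± 0.03 with AML874 at 24 h and -0.19 ± 0.03 at 8 h (edgeR adjusted p = 0.000203 and 3.25e-06), and with SEL120-34A 0.04 ± 0.03 and -0.02 ± 0.03, which did not pass. RPS27L is a close relative of RPS27, and how shared reads were split was not examined. SESN1, a sestrin that restrains the growth kinase mTOR, rose by 0.17 ± 0.04 and 0.21 ± 0.04 with AML874 and SEL120-34A at 24 h, and by 0.12 ± 0.04 and 0.10 ± 0.04 at 8 h. The 8 h calls were lost without replicate 1 or 2 of DMSO (edgeR adjusted p = 0.072 and 0.0852 with AML874, 0.122 and 0.143 with SEL120-34A). The AML874 call was also lost without its replicate 1 or 2 (edgeR adjusted p = 0.0506 and 0.0631), and the SEL120-34A call without its replicate 1 or 2 (edgeR adjusted p = 0.0688 and 0.371). SESN2, another sestrin, rose by 0.21 ± 0.05 and 0.21 ± 0.05 at 8 h, and did not pass at 24 h (-0.03 and 0.05).

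**Figure D3:**
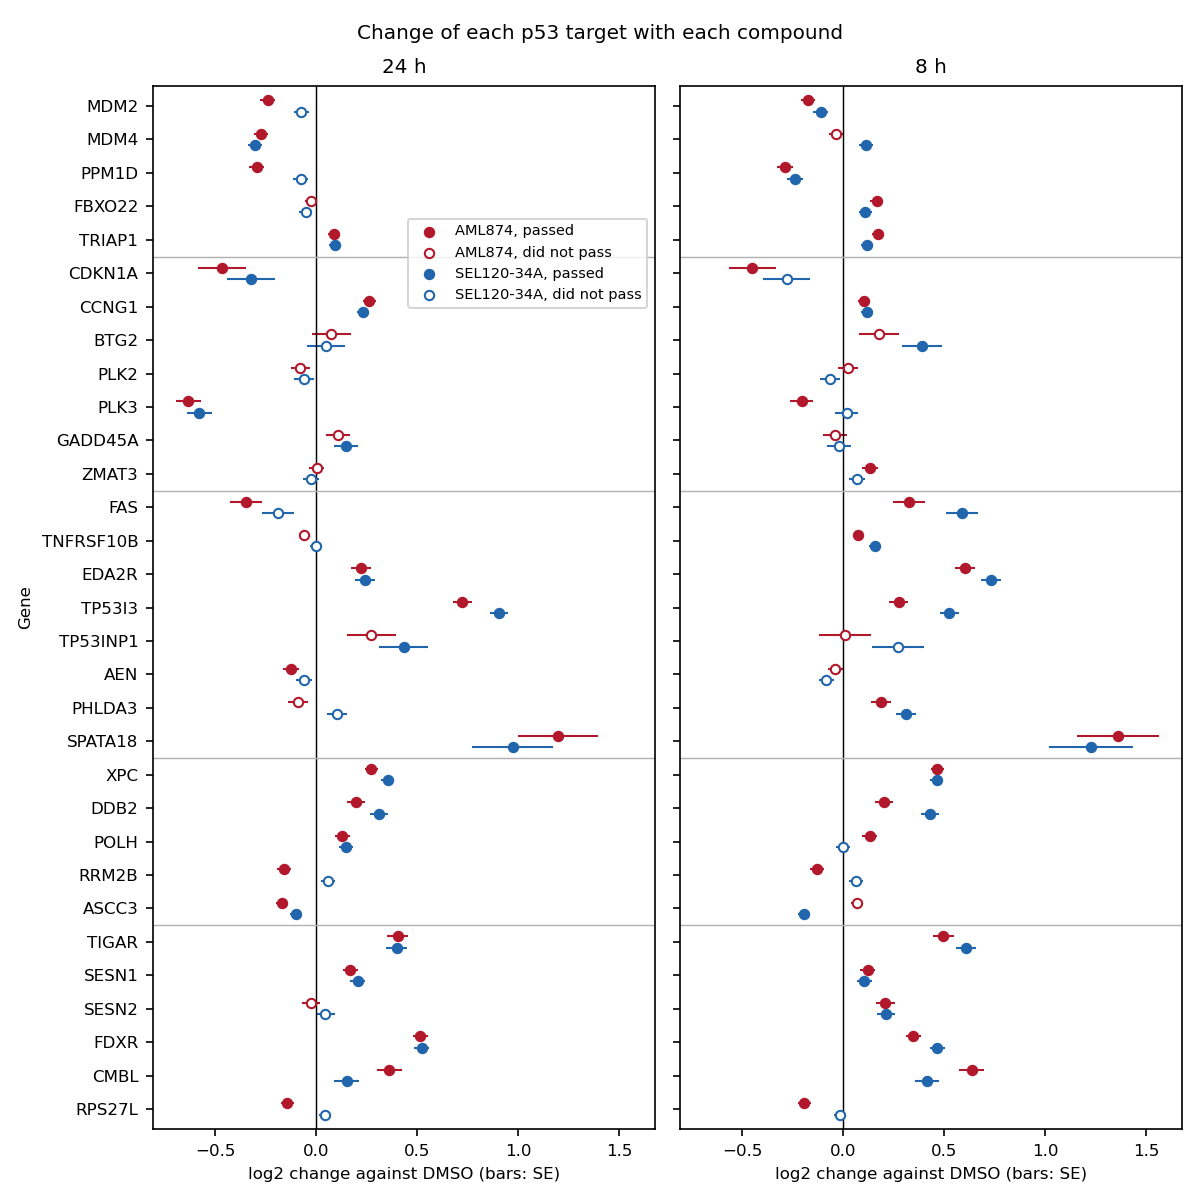
Log2 change of each of the 31 genes against DMSO (points, with SE bars) with AML874 (red) and SEL120-34A (blue) at 24 h (left) and 8 h (right); filled points passed edgeR at an adjusted p under 0.05 and open points did not. Points of PPM1D, CDKN1A and MDM2 lie at or left of 0 and those of TP53I3, SPATA18, XPC, TIGAR and FDXR right of it in both panels.

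Whether an effect differed between the times was tested as the change with a compound at 24 h minus that at 8 h. For AML874 3 of the 31 differences were positive and 11 negative, or 45.2%, against 23.6% of all genes tested (11.1% and 12.5%). For SEL120-34A 4 were positive and 9 negative, or 41.9%, against 27.3% (14.2% and 13%). Scaled by library totals alone, 1 was positive and 13 negative for AML874, and 1 and 14 for SEL120-34A, while over all genes 1724 and 3884, and 1811 and 4418, passed in the same order. FAS had the largest differences, with a difference of -0.67 ± 0.11 for AML874 and -0.77 ± 0.11 for SEL120-34A (edgeR adjusted p = 2.42e-05 and 1.61e-06). PLK3 had -0.43 ± 0.08 and -0.60 ± 0.08, MDM4 -0.24 ± 0.05 and -0.41 ± 0.05, and EDA2R -0.38 ± 0.07 and -0.49 ± 0.07, with AML874 before SEL120-34A. TP53I3 went the other way, with differences of 0.45 ± 0.06 and 0.38 ± 0.06 (edgeR adjusted p = 1.67e-06 and 1.71e-05).

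**Figure D4:**
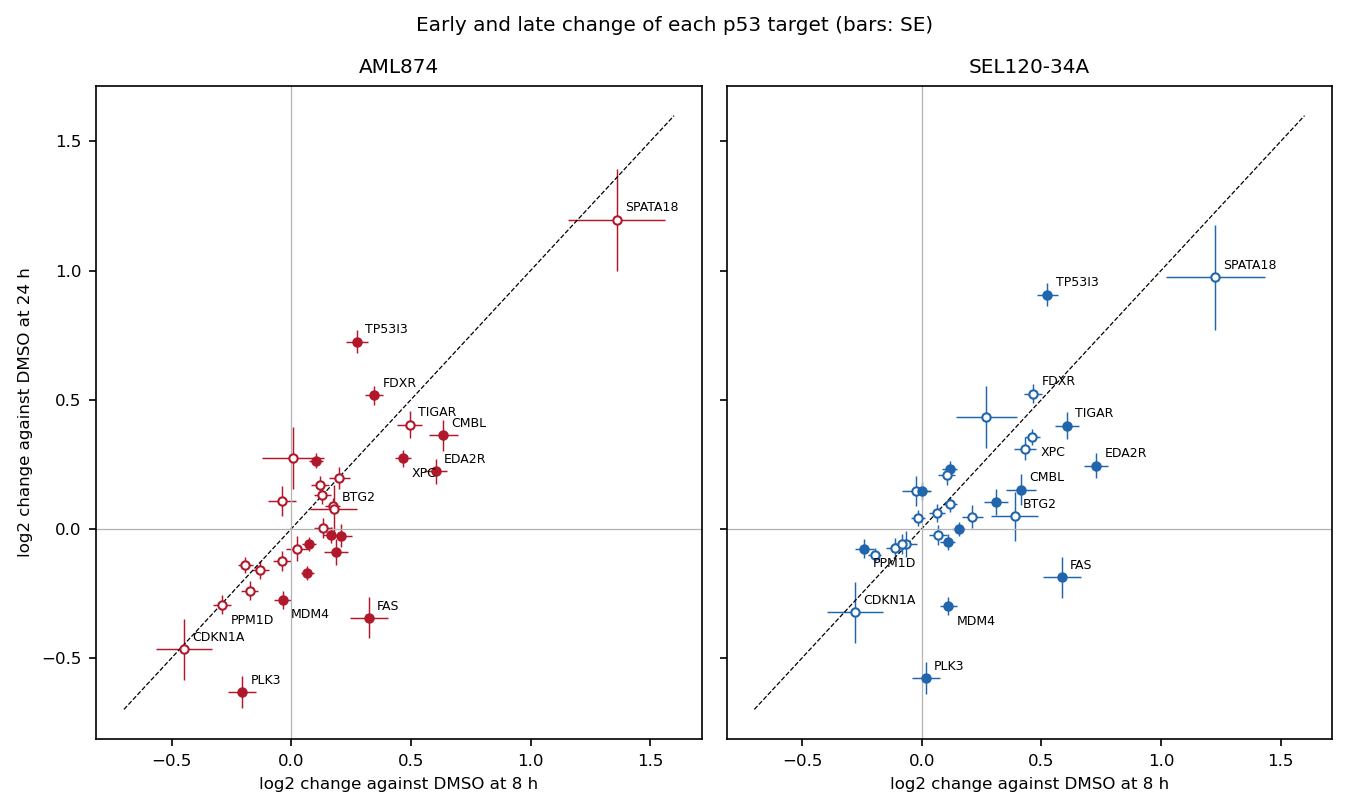
Log2 change against DMSO at 24 h (vertical) and at 8 h (horizontal) of each of the 31 genes with AML874 (left) and SEL120-34A (right), with SE bars; filled points are genes whose 2 changes differed in edgeR's test, and the dashed line marks equal changes. TP53I3 lies above the line and FAS, PLK3, MDM4 and EDA2R below it with both compounds.

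AML874 and SEL120-34A were also compared with each other at matched times, at doses that the labels do not give. At 24 h 1 gene was higher with AML874 than with SEL120-34A and 6 were lower, or 22.6%, against 19.6% of all genes tested (8% higher, 11.6% lower). At 8 h 3 were higher and 10 lower, or 41.9%, against 31.2% (16% higher, 15.2% lower). The share at 24 h was near the background. The median difference was -0.05 at 24 h and -0.06 at 8 h, against 0.00 for all genes at each time.

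RRM2B was lower with AML874 than with SEL120-34A, with a log2 difference of -0.22 ± 0.04 at 24 h and -0.19 ± 0.04 at 8 h (edgeR adjusted p = 1.79e-05 and 5.25e-05). RPS27L differed by -0.18 ± 0.03 and -0.18 ± 0.03, and TP53I3 by -0.18 ± 0.04 and -0.25 ± 0.04. PPM1D differed by -0.22 ± 0.04 and MDM2 by -0.17 ± 0.04 at 24 h (edgeR adjusted p = 5.12e-05 and 0.00155), while at 8 h neither passed (95% intervals -0.13 to 0.03 for PPM1D and -0.14 to 0.01 for MDM2). PHLDA3 differed by -0.19 ± 0.05 at 24 h. CMBL was higher with AML874, by 0.21 ± 0.06 at 24 h and 0.22 ± 0.06 at 8 h, and the 24 h call was lost without replicate 1 of SEL120-34A (edgeR adjusted p = 0.0666).

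At 8 h ASCC3 was higher with AML874 by 0.26 ± 0.03 and POLH by 0.13 ± 0.04, and the POLH call was lost without replicate 3 of SEL120-34A (edgeR adjusted p = 0.0771). DDB2, PLK3 and MDM4 had log2 differences of -0.23 ± 0.04, -0.22 ± 0.06 and -0.15 ± 0.03. Those of FAS, FDXR, EDA2R and TNFRSF10B were -0.26 ± 0.08, -0.12 ± 0.04, -0.13 ± 0.05 and -0.08 ± 0.03, also lower with AML874, and each of these 4 calls was lost without replicate 2 of SEL120-34A (edgeR adjusted p = 0.0651, 0.147, 0.14 and 0.0931 in that order). The EDA2R call was lost in 7 of 30 alternative fits, and those of FDXR and TNFRSF10B also without replicates 2 and 1 of AML874 (edgeR adjusted p = 0.0845 and 0.0767). For TIGAR, XPC and SPATA18, which did not pass between the compounds, the 95% intervals, not adjusted, of the difference at 24 h were -0.10 to 0.11, -0.15 to -0.02 and -0.15 to 0.60. These intervals do not show that the compounds act alike.

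The p53 targets also moved with culture time alone. In DMSO 11 rose and 7 fell at 24 h against 8 h, or 58.1%, against 42.5% of all genes tested (19.8% rose, 22.7% fell, or 5025 higher and 3770 lower scaled by library totals alone). TP53INP1 had 31.9 ± 1.36 CPM at 24 h and 20.5 ± 3.73 CPM at 8 h (SD, n = 3 each) and rose by 0.64 ± 0.13 on the log2 scale. BTG2 rose by 0.43 ± 0.10, FAS by 0.25 ± 0.08 and CCNG1 by 0.20 ± 0.03, and the FAS call was lost without replicate 1 of DMSO at 8 h (edgeR adjusted p = 0.0807). AEN had 68.1 ± 3.18 CPM at 24 h and 98.9 ± 2.58 CPM at 8 h, a log2 change of -0.54 ± 0.04. PLK3 had -0.40 ± 0.06, TRIAP1 -0.34 ± 0.03, FDXR -0.27 ± 0.04 and RPS27L -0.23 ± 0.03, and all 4 fell. The HIF mean was higher in every DMSO library at 24 h than at 8 h, so hypoxia response and time cannot be told apart in DMSO. With the HIF mean as a covariate 7 of the 31 genes rose and 11 fell, without the share of all genes in that fit beside them. The 4 rises named here were smaller. TP53INP1 was then at 0.31, BTG2 at 0.15 and CCNG1 at 0.11, and FAS, at 0.22, did not pass (edgeR adjusted p = 0.0904). The rises of DDB2, SESN1 and PPM1D were also lost with the covariate (edgeR adjusted p = 0.794, 0.135 and 0.513). CDKN1A had -0.29 without the covariate, which did not pass (edgeR adjusted p = 0.0666), and -0.60 with it (edgeR adjusted p = 1.67e-06).

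CDKN1A and BTG2 were highest in the library with the highest HIF mean in 6 of 6 groups. GADD45A, PHLDA3 and POLH were so in 5 groups, and PPM1D, CCNG1, TNFRSF10B, TP53INP1, XPC, DDB2, TIGAR and SESN1 in 4. The other 18 genes were so in 1 to 3 groups, among them EDA2R in 2 and TP53I3 in 1. The same count was not made over all genes, so it does not set the p53 targets apart. It is also coarse. Inside groups the correlation with the HIF mean was 0.05 for TIGAR and 0.91 for TP53INP1, both at 4 groups. AEN and TRIAP1 went the other way, at -0.76 and -0.57. Replicate 3 of DMSO at 8 h, the highest of its group in the HIF mean at 5.69 log2 CPM, also had the highest CDKN1A (188 CPM), BTG2 (29.4 CPM) and TP53INP1 (24.8 CPM) of that group. Replicate 2 of SEL120-34A at 8 h, at a HIF mean of 5.42, likewise led its group with 159, 38.2 and 29.4 CPM in the same order. Of the 22 HIF targets, 9 fell with AML874 at 24 h and 10 at 8 h, and with SEL120-34A 7 fell at 24 h and 8 at 8 h. These are 40.9 and 45.5% of the list with AML874, against 23.7 and 19.9% of all genes that fell, and 31.8 and 36.4% with SEL120-34A, against 18.6 and 22.6%.

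With the covariate TP53INP1 had 0.47 ± 0.05 and 0.59 ± 0.04 with AML874 and SEL120-34A at 24 h, and 0.27 ± 0.05 and 0.41 ± 0.05 at 8 h, and passed in all 4 (edgeR adjusted p = 1.75e-11, 1.74e-14, 4.69e-05 and 9.27e-10), of which only SEL120-34A at 24 h had passed without it. Other calls against DMSO also appeared with the covariate. Calls made only with it, here and above, are not read as effects of a compound. The HIF mean was lower in every AML874 library than in DMSO of the same time. It also holds targets that fell with each compound. In that fit AEN fell with SEL120-34A at 24 h (-0.11) and with AML874 and SEL120-34A at 8 h (-0.12 and -0.13), and GADD45A rose by 0.22 with AML874 at 24 h. RRM2B rose with SEL120-34A by 0.10 at 24 h and 0.09 at 8 h, PHLDA3 by 0.15 at 24 h and ZMAT3 by 0.09 at 8 h. TIGAR was at 0.41 ± 0.06 and 0.40 ± 0.05 at 24 h, and TP53I3 at 0.72 ± 0.05 and 0.91 ± 0.05. Without the 4 libraries, 14 rose and 11 fell with AML874 at 24 h, and 12 rose and 7 fell with SEL120-34A. At 8 h 19 rose and 7 fell with AML874, and 16 rose and 5 fell with SEL120-34A. These counts are of the 31 genes and are not set beside the share of all genes that passed in the same fit. They therefore do not tell a change in these genes from a change in all genes.

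**Figure D5:**
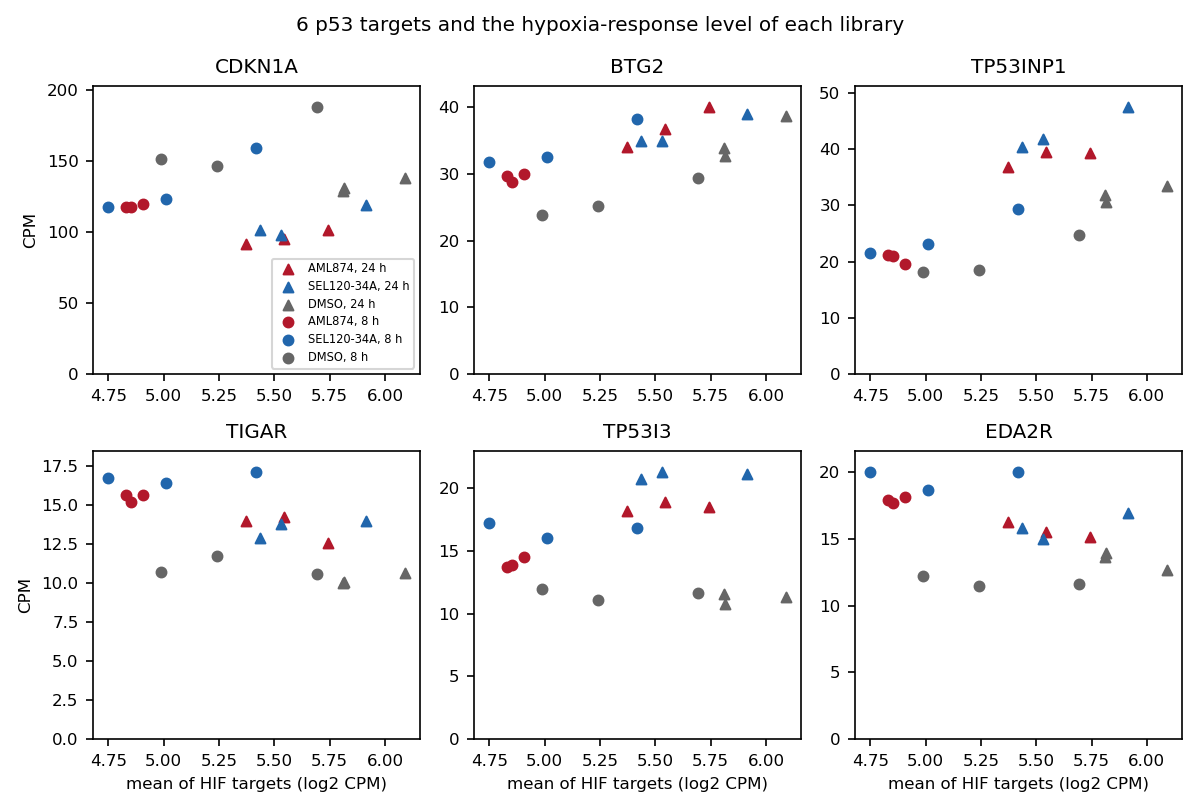
CPM of 6 of the genes (vertical) against the mean of 22 HIF targets in log2 CPM (horizontal), 1 point per library; triangles are 24 h, circles 8 h, red AML874, blue SEL120-34A and grey DMSO. CDKN1A and BTG2 are highest in the library of each group with the highest HIF mean, and the treated libraries of TIGAR, TP53I3 and EDA2R lie above DMSO of the same time.

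The regulators upstream of the targets were read from a separate list of 24 genes, of which 23 were tested. With AML874 at 24 h 7 rose and 9 fell, and with SEL120-34A 8 rose and 6 fell, while at 8 h 3 rose and 9 fell with AML874 and 3 rose and 13 fell with SEL120-34A. The median log2 change of the list was -0.02 (AML874) and 0.03 (SEL120-34A) at 24 h, and -0.02 and -0.10 in the same order at 8 h. The share that passed was 69.6 and 60.9% at 24 h and 52.2 and 69.6% at 8 h, against 46.8 and 37.7%, and 39.6 and 45.1%, of all genes tested. As given above, the background was higher among genes with at least 1 CPM in 3 libraries. This list and those that follow were not counted with that filter. A share above that of all genes tested is therefore not read as a trait of a list. RCHY1, another ubiquitin ligase of p53, had -0.45 ± 0.04 and -0.37 ± 0.04 at 24 h and -0.28 ± 0.04 and -0.19 ± 0.04 at 8 h, and EP300, a coactivator, had -0.31 ± 0.03 and -0.07 ± 0.03 at 24 h and -0.28 ± 0.03 and -0.28 ± 0.03 at 8 h, all of them falls. PRKDC, a DNA damage kinase, fell by 0.31 with SEL120-34A at 8 h and rose by 0.08 with it at 24 h.

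Of 40 further p53 targets 35 were tested. With AML874 at 24 h 18 rose and 10 fell, and with SEL120-34A 16 rose and 8 fell. At 8 h 10 rose and 10 fell with AML874, and 13 rose and 8 fell with SEL120-34A. The median log2 change of the list was 0.20 (AML874) and 0.18 (SEL120-34A) at 24 h, and 0.12 and 0.16 in the same order at 8 h. Of these genes 80 and 68.6% passed at 24 h and 57.1 and 60% at 8 h, beside the background of 46.8, 37.7, 39.6 and 45.1%. BAX, which permeabilises mitochondria in apoptosis, had -0.15 ± 0.03 with AML874 at 24 h, -0.05 ± 0.02 with SEL120-34A at 24 h and -0.08 ± 0.02 and -0.08 ± 0.02 at 8 h, and all but SEL120-34A at 24 h passed. BBC3, which encodes the apoptosis trigger PUMA, fell with AML874 at 8 h (-0.31 ± 0.10) and rose with SEL120-34A at 24 h by 0.35 ± 0.09, and between the compounds it differed by -0.43 ± 0.09 at 24 h and -0.52 ± 0.09 at 8 h. PMAIP1, which encodes NOXA, passed with AML874, at 0.20 ± 0.06 at 24 h and 0.35 ± 0.07 at 8 h, and had 0.03 ± 0.07 and 0.16 ± 0.07 with SEL120-34A, which did not pass. TRIM22 rose by 0.25 ± 0.03 and 0.37 ± 0.03 at 24 h and by 0.38 ± 0.03 and 0.58 ± 0.03 at 8 h, and ALDH4A1, a proline-pathway enzyme, by 0.53 ± 0.04 and 0.28 ± 0.04 and by 0.33 ± 0.04 and 0.20 ± 0.04. TM7SF3 rose by 0.32 ± 0.02 and 0.32 ± 0.02 at 24 h and fell at 8 h (-0.29 ± 0.02 and -0.25 ± 0.02). DRAM1, an autophagy gene, rose by 0.19 ± 0.04 at 24 h and 0.56 ± 0.04 at 8 h with SEL120-34A, and with AML874 was at -0.03 and 0.08 and did not pass.

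Cell cycle genes that p53 is known to repress through p21 and the DREAM complex formed a list of 20, all tested. With AML874 at 24 h 14 fell and 2 rose, and with SEL120-34A 9 fell and 3 rose. At 8 h 13 fell and 3 rose with AML874, and 8 fell and 5 rose with SEL120-34A. The median log2 change of the list was -0.16 (AML874) and -0.06 (SEL120-34A) at 24 h, and -0.12 and -0.02 in the same order at 8 h. Over all genes tested 23.7 and 18.6% fell at 24 h and 19.9 and 22.6% at 8 h, and 23.1, 19.1, 19.7 and 22.4% rose. CDK1, the mitotic kinase, had -0.40 ± 0.03 and -0.26 ± 0.03 at 24 h and -0.19 ± 0.03 and -0.08 ± 0.03 at 8 h, with AML874 before SEL120-34A. E2F1, a driver of S phase entry, had -0.38 ± 0.04 and -0.32 ± 0.04, then -0.45 ± 0.04 and -0.58 ± 0.04, and CCNA2, cyclin A2, had -0.29 ± 0.02 and -0.18 ± 0.02, then -0.19 ± 0.02 and -0.10 ± 0.02, and all passed. MCM3, a subunit of the replicative helicase, fell at 8 h (-0.13 ± 0.03 and -0.30 ± 0.03) and did not pass at 24 h.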

How the data were processed

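Poly(A) RNA of OCI-AML1 was taken with TRIzol and columns, per the labels. Reads were processed with STAR 2.7.1a and RSEM 1.3.2 on GRCh38, per the submitters' processing notes; the annotation release is not given in the sources used here. The deposited files hold whole-number counts per gene by strand, and, from RSEM, expected counts and TPM by the authors. Reverse-strand counts were used, since the forward-strand counts in genes came to 6.27 to 6.66% of them in each library. XPC and FAS also overlap genes on the opposite strand. The 4 summary lines, 21.9 to 25.5% of each column, were left out. Gene positions are from GENCODE 29.

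All 20920 genes that passed filterByExpr, which removed 0.0163% of the counts, were fitted with edgeR 4.0.16 (R 4.3.3; TMM scaling, robust quasi-likelihood, 1 model of the 6 group means, 12 residual degrees of freedom), with Benjamini-Hochberg adjustment over all genes and a call at an adjusted p under 0.05. Depth was 98975944 to 142496541 counts a library. Levels within a gene are in CPM and between genes in TPM. Alternatives included DESeq2 1.42.0 and limma 3.58.1, other scalings and filters, unstranded counts, expected counts rounded to whole numbers, a replicate block, the HIF mean as a covariate and each library left out. The scripts were tested on simulated data. The members and lists were chosen with earlier results of these data known. The values of 1 gene of the regulator list are not reported here. Values by library are given for MDM2, MDM4 and CDKN1A and for up to 4 genes of each role with the smallest adjusted p in any comparison with DMSO, if its group mean reached 1 CPM. Same-numbered libraries deviated together (correlation over 0.1) in 5 of 21 pairs, among them all 3 pairs of AML874 and DMSO at 24 h (0.38, 0.17 and 0.24). Other pairs deviated in opposite directions. Replicates 2 and 3 of SEL120-34A and DMSO at 8 h were at -0.52 and -0.51, the former the lowest of all pairs. The main fit did not pair the samples in any comparison. The replicate number entered as a block only in an alternative fit.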

Additional observations from a re-analysis of the deposited data

Results flagged for a closer look

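The effect of a compound on a gene differed between 24 h and 8 h in 27 cases, by edgeR's test of the difference itself, given here as the log2 change at 24 h minus that at 8 h ± SE. With AML874 the difference was positive for CCNG1 at 0.16 ± 0.04 (a change of 0.26 at 24 h and 0.10 at 8 h), TP53I3 at 0.45 ± 0.06 (a change of 0.72 at 24 h and 0.27 at 8 h) and FDXR at 0.17 ± 0.05 (a change of 0.52 at 24 h and 0.35 at 8 h). It was negative for MDM4 at -0.24 ± 0.05 (a change of -0.27 at 24 h and -0.04 at 8 h), FBXO22 at -0.19 ± 0.04 (a change of -0.03 at 24 h and 0.17 at 8 h), PLK3 at -0.43 ± 0.08 (a change of -0.63 at 24 h and -0.21 at 8 h) and FAS at -0.67 ± 0.11 (a change of -0.35 at 24 h and 0.32 at 8 h). It was also negative for TNFRSF10B at -0.13 ± 0.04 (a change of -0.06 at 24 h and 0.07 at 8 h), EDA2R at -0.38 ± 0.07 (a change of 0.22 at 24 h and 0.60 at 8 h), PHLDA3 at -0.28 ± 0.07 (a change of -0.09 at 24 h and 0.19 at 8 h) and XPC at -0.19 ± 0.05 (a change of 0.27 at 24 h and 0.47 at 8 h). The remaining negative differences with AML874 were for ASCC3 at -0.24 ± 0.04 (a change of -0.17 at 24 h and 0.07 at 8 h), SESN2 at -0.24 ± 0.06 (a change of -0.03 at 24 h and 0.21 at 8 h) and CMBL at -0.27 ± 0.09 (a change of 0.36 at 24 h and 0.63 at 8 h).

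With SEL120-34A the difference was positive for PPM1D at 0.16 ± 0.05 (a change of -0.08 at 24 h and -0.24 at 8 h), CCNG1 at 0.11 ± 0.04 (a change of 0.23 at 24 h and 0.12 at 8 h), TP53I3 at 0.38 ± 0.06 (a change of 0.91 at 24 h and 0.53 at 8 h) and POLH at 0.15 ± 0.05 (a change of 0.15 at 24 h and -0.00 at 8 h). It was negative with SEL120-34A for MDM4 at -0.41 ± 0.05 (a change of -0.30 at 24 h and 0.11 at 8 h), FBXO22 at -0.16 ± 0.04 (a change of -0.05 at 24 h and 0.11 at 8 h), PLK3 at -0.60 ± 0.08 (a change of -0.58 at 24 h and 0.02 at 8 h), FAS at -0.77 ± 0.11 (a change of -0.19 at 24 h and 0.59 at 8 h) and TNFRSF10B at -0.16 ± 0.04 (a change of -0.00 at 24 h and 0.15 at 8 h). The other negative differences were for EDA2R at -0.49 ± 0.07 (a change of 0.24 at 24 h and 0.73 at 8 h), PHLDA3 at -0.21 ± 0.07 (a change of 0.10 at 24 h and 0.31 at 8 h), TIGAR at -0.21 ± 0.07 (a change of 0.40 at 24 h and 0.61 at 8 h) and CMBL at -0.26 ± 0.09 (a change of 0.15 at 24 h and 0.41 at 8 h). FAS and EDA2R are among those with a rise at 8 h and a lower change at 24 h, while MDM4 and PLK3 fell at 24 h. The CCNG1 difference with SEL120-34A was lost in 16 of 30 alternative fits and that of TIGAR in 8 of 30, with edgeR adjusted p up to 0.547 and 0.102. Leaving out 1 library also ended the calls of PHLDA3, POLH, PPM1D and CMBL with SEL120-34A and of CMBL and TNFRSF10B with AML874.

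Where these calls ended, the edgeR adjusted p was 0.104 for POLH and 0.0879 for PPM1D without replicate 3 of SEL120-34A at 8 h, 0.139 for PHLDA3 without replicate 1 of DMSO at 24 h, 0.102 and 0.108 for CMBL with SEL120-34A and AML874 without replicate 1 of DMSO at 8 h, and 0.051 for TNFRSF10B without replicate 2 of AML874 at 8 h.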

How the results depend on the processing

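Of 150 calls of the p53 targets over the 9 comparisons, 111 held in all of the 30 alternative fits run and 39 were lost in at least 1, and 0 changed direction by any of them. With the HIF mean as a covariate the number of the 31 genes that passed was 12 in place of 7 between the compounds at 24 h. It was 21 in place of 13 for the SEL120-34A effect at 24 h minus 8 h. The share of all genes in that fit is not set beside these counts, and the cause was not tested. Other settings kept the count of genes within 1.5 times. Leaving out 1 library at a time gave 20 to 23 with AML874 at 24 h, 13 to 19 with SEL120-34A at 24 h, 19 to 25 with AML874 at 8 h, 19 to 22 with SEL120-34A at 8 h, 7 to 9 between the compounds at 24 h, 9 to 14 between the compounds at 8 h, 17 to 19 in DMSO over time, 13 to 14 for the AML874 effect at 24 h minus 8 h and 11 to 15 for the SEL120-34A effect at 24 h minus 8 h. With the replicate number as a block, 12 rose and 10 fell with AML874 at 24 h, 12 rose and 3 fell with SEL120-34A at 24 h, 18 rose and 6 fell with AML874 at 8 h and 18 rose and 3 fell with SEL120-34A at 8 h. The share of all genes in the leave-one-out and block fits is not set beside these counts either. The counts therefore do not tell a change in these genes from a change in all genes. The block ended the calls of CDKN1A, GADD45A and CMBL with SEL120-34A at 24 h and of CCNG1 for the SEL120-34A effect at 24 h minus 8 h (edgeR adjusted p = 0.0604, 0.0617, 0.0575 and 0.0575), and no other call. Scaling by library totals alone moved the median of all genes at 8 h by 0.05 (AML874) and 0.07 (SEL120-34A) on the log2 scale. With 3 libraries a group, changes near the SE of a gene could not be told from 0.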
